A study of Oryctolagus cuniculus with 6 samples.

Results

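The genes described here are the cytochrome P450 enzymes and the UDP-glucuronosyltransferases of the rabbit. A microarray measured them in blastocysts recovered after cryopreservation and transfer, and in untreated blastocysts. Members were all array probes that were not controls and whose description named a cytochrome P450 or a glucuronosyltransferase, or whose gene name began with CYP or UGT. The rule gave 104 of the 43603 probes of the array and 59 of its 10293 named genes, 49 of them P450 genes and 10 of them UGT genes, and each gene was represented by its brightest probe. Each probe is a DNA strand of 60 bases. The deposited gene names are those of the array's design, and 22 of the 104 probes carried no genome position.

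The study asked how the transcriptome of late rabbit blastocysts differs after cryopreservation. When their RNA was taken, all embryos were New Zealand White rabbit blastocysts of 6 days. Vitrified embryos had been brought to 20% DMSO and 20% ethylene glycol and plunged into liquid nitrogen, and frozen embryos had been brought to 1.5 M DMSO and cooled at 0.3 °C per minute to -35 °C. Both were then transferred into recipient females and recovered as viable embryos, whereas controls were untreated embryos that had developed in vivo, so cryopreservation and transfer cannot be told apart. Each of 6 arrays carried 1 cryopreserved and 1 control extract in different dyes. There were 3 arrays for vitrified and 3 for frozen embryos, labelled as biological replicates. The number of embryos in an extract is not given in the sources used here. The p-values measure the spread between these extracts.

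P450 enzymes are haem proteins that insert oxygen into lipids, hormones, vitamins and foreign compounds, with electrons passed on by the reductase POR or, in mitochondria, by the ferredoxin FDX1. UGT enzymes couple glucuronic acid, which UGDH prepares, to steroids, bilirubin and drugs so that these can leave the cell. In an early embryo the best known members are the CYP26 enzymes, which break down retinoic acid, CYP51A1, which acts in cholesterol synthesis, and CYP19A1, the aromatase that makes oestrogens.

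The probes that the results turn on are printed here to show what each value reads. The CYP51A1 gene had both of its probes well above background, and capitals mark the 20 bases that these probes share, so their values are not independent. They lie at chr10:36650725-36650784 and chr10:36650765-36650824 on the plus strand. The build of these and the other positions is not given in the sources used here.
CYP51A1 brightest probe: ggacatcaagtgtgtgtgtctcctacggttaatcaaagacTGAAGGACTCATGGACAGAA
CYP51A1 second probe: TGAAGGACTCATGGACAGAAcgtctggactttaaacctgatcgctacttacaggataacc

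The CYP26 enzymes each had 1 probe. CYP26A1 and CYP26C1 are neighbours in the files' coordinates, with probes at chr18:40841223-40841282 and chr18:40832393-40834142. The CYP26C1 interval is longer than the probe. The CYP26B1 probe lies at chr2:114294402-114294461.
CYP26A1: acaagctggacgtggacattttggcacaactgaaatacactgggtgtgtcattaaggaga
CYP26C1: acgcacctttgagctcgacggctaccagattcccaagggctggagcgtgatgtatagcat
CYP26B1: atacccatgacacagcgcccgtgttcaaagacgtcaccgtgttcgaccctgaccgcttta

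CYP20A1 and the CYP21A2-like gene are shown because their values stood among the larger ones in vitrified embryos. Capitals mark the stop codon in the CYP20A1 probe, at chr7:143960558-143960614. In the CYP21A2-like probe, at chr12:20837090-20837149, they mark the 16 bases shared with 1 other probe of the array, which had no gene name.
CYP20A1: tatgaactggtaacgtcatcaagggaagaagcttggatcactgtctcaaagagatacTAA
CYP21A2-like: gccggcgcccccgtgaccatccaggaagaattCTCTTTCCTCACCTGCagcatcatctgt

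P450 proteins share a loop that holds the haem iron through a cysteine. The codons of its invariant residues were searched for as TTNNNNNNNGGNNNNNNNNNNTGNNNNGG, which is 29 bases long, on both strands of every probe. The letters were present in 2 of the 104 member probes on the probe strand and in 0 on the opposite strand. Over the array they were present in 16 probes (0.0367%) on the probe strand and 21 probes (0.0482%) on the opposite strand. Both member probes are shown with the motif in capitals. The CYP2A11 probe does not hold these letters, and its first 30 bases follow the other two.
CYP2A10: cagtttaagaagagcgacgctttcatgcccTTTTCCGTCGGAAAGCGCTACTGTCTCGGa
CYP2B5: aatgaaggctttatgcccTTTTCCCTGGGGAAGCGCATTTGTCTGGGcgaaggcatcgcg
CYP2A11: ttgtgtcaagaacgtgggaattgttgagga

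The share of spots flagged well above background per array was 44.7% to 58.0% for the green dye and 64.2% to 74.5% for the red dye. As markers of a blastocyst, GATA2, GATA3, TFAP2A, TFAP2C and KRT8 of the trophectoderm and POU5F1, DPPA5 and OTX2 of the inner cell mass were well above background in all 12 channel measurements, and the trophectoderm gene ELF5 in 0. No member probe was saturated on any array.

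Detection divided the family. Of the 59 genes, 18 had their brightest probe well above background in all 12 channel measurements (30.5%), and 17 in none (28.8%). Probe by probe, the 104 member probes stood at 23.1% in all 12 and 33.7% in none, against 43.7% and 22.2% of all probes. The share of genes in none was 20.4% for the P450 genes and 70% for the UGT genes. A gene was tested if at least 3 of the 12 measurements of its probe were above background by that flag, which held for 39 genes. A probe that passed may have done so through the group in which it was bright, so counts among the 39 do not describe all 59 genes.

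The 17 genes never well above background were 10 P450 and 7 UGT genes. The 7 were among 10 UGT genes and included UGT2B14, UGT2B16 and UGT2A2, while UGT2B13 was in 4 of 12 measurements. The brightest probes of UGT1-6, a family member that conjugates phenols, and of UGT2A3 were well above background in 12 of 12. The other probe of UGT2A3, which overlaps the bright one in position, was in 0 of 12. The 10 were among 49 P450 genes and included CYP24A1 and CYP27B1, which degrade and activate vitamin D, CYP2A10, CYP2U1, CYP4F22 and CYP4X1. The sterol and bile acid enzymes had 4 of 6 genes in all 12 measurements and 0 of 6 in none. The CYP26 enzymes were in 12, 12 and 10 measurements for CYP26A1, CYP26C1 and CYP26B1.

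**Figure D1:**
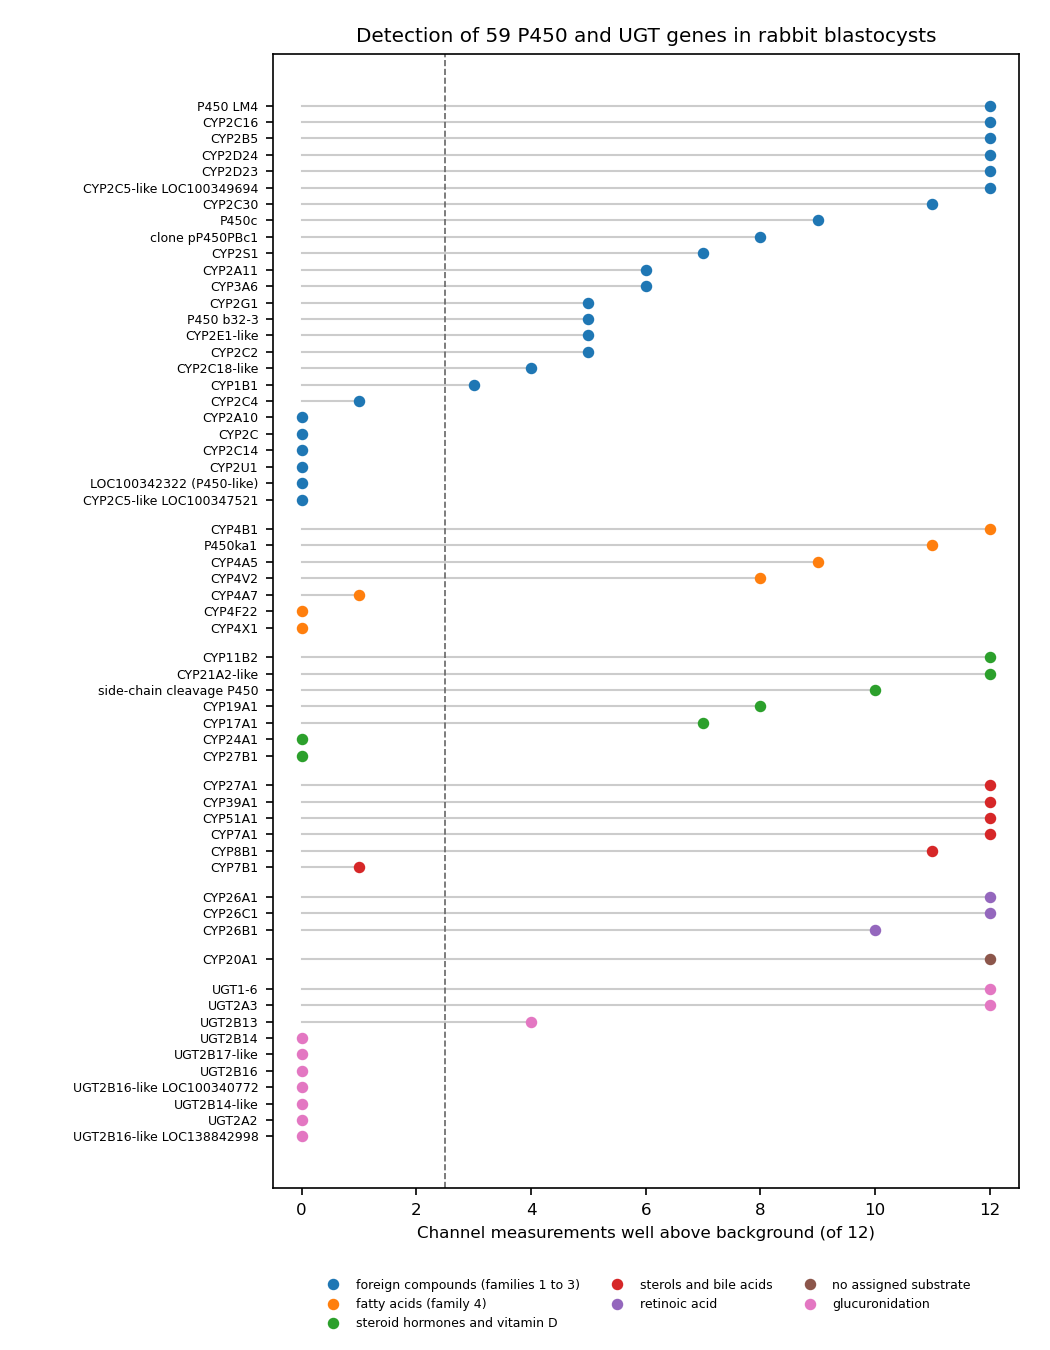
Each point is 1 of the 59 genes, and the horizontal axis gives in how many of the 12 channel measurements (6 arrays, 2 dyes) its brightest probe was well above background. Colours are the enzyme roles, and genes right of the dashed line were tested. Of the 10 glucuronidation genes 7 sit at 0, whereas 4 of the 6 sterol and bile acid genes sit at 12.

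Probes of the same gene did not always give the same reading. CYP7A1, the rate-limiting enzyme of bile acid synthesis, had 1 probe in 12 of 12 measurements and 3 probes in 6, 0 and 0. Its bright probe shares the run tctctgtaactctacct, 17 bases, with a probe of another gene, and it shares runs of at least 16 bases with 3 probes of other genes in all, among them SFTPA1 and METTL6. The probe of P450ka1, a fatty acid hydroxylase, shares such runs with 12 other probes on the same strand and 7 on the opposite strand. Whether RNA of other genes adds to the signals of these probes was not tested. The CYP2D24 probe shares 52 bases with 1 probe that has no gene name. CYP2C16 had 5 probes, of which 2 were in 12 of 12 measurements and the others in 1, 0 and 0. For CYP8B1, a bile acid hydroxylase, 5 probes were each in 11 of 12 and the sixth in 0. The 5 probes overlap almost fully in position, so their readings are not independent.

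The test was limma's moderated test with Benjamini-Hochberg adjustment over all 30761 tested probes and a threshold of 0.05. Values are log2 ratios of cryopreserved over control, with the standard error (SE) of the fit. No member passed in any comparison. In vitrified embryos 0 of 39 genes passed, against 0.0195% of tested probes, and in frozen embryos 0 of 39, against 0.185%. In the difference between the treatments 0 of 39 passed, against 0%. At an unadjusted p under 0.05 there were 7 of 39 genes in vitrified embryos, where 17.4% of all tested probes stood. The corresponding counts were 5 genes in frozen embryos, against 13.2% of all tested probes, and 2 genes in the difference, against 7.54%. The members' shares, at 17.9%, 12.8% and 5.13%, are near those of all tested probes. The sign was the same on all 3 arrays for 33.3% of members in vitrified embryos, against 37.3% of all tested probes. In frozen embryos the shares were 30.8% and 30.4%, and in the difference 25.6% and 31.8%. Many genes named below were picked for this agreement, so it is not evidence of a change in them. Vitrified and frozen arrays of the same number name the same control extract, so the comparisons are not independent of each other.

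The median over the 39 genes was 0.03 in vitrified and 0.04 in frozen embryos, against 0.01 and 0.01 over all tested probes. The median size of a member's value, without its sign, was 0.09 in either treatment, against 0.13 and 0.11 over all probes. By array the median of the members ran from -0.01 to 0.06, with no array apart from the rest. The 95% interval lay within a 2-fold change either way for 38 of 39 genes in vitrified embryos and for 39 of 39 in frozen embryos, and for 96.9% of all tested probes in either treatment, so these counts are near the share over the array. The exception was CYP2A11.

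**Figure D2:**
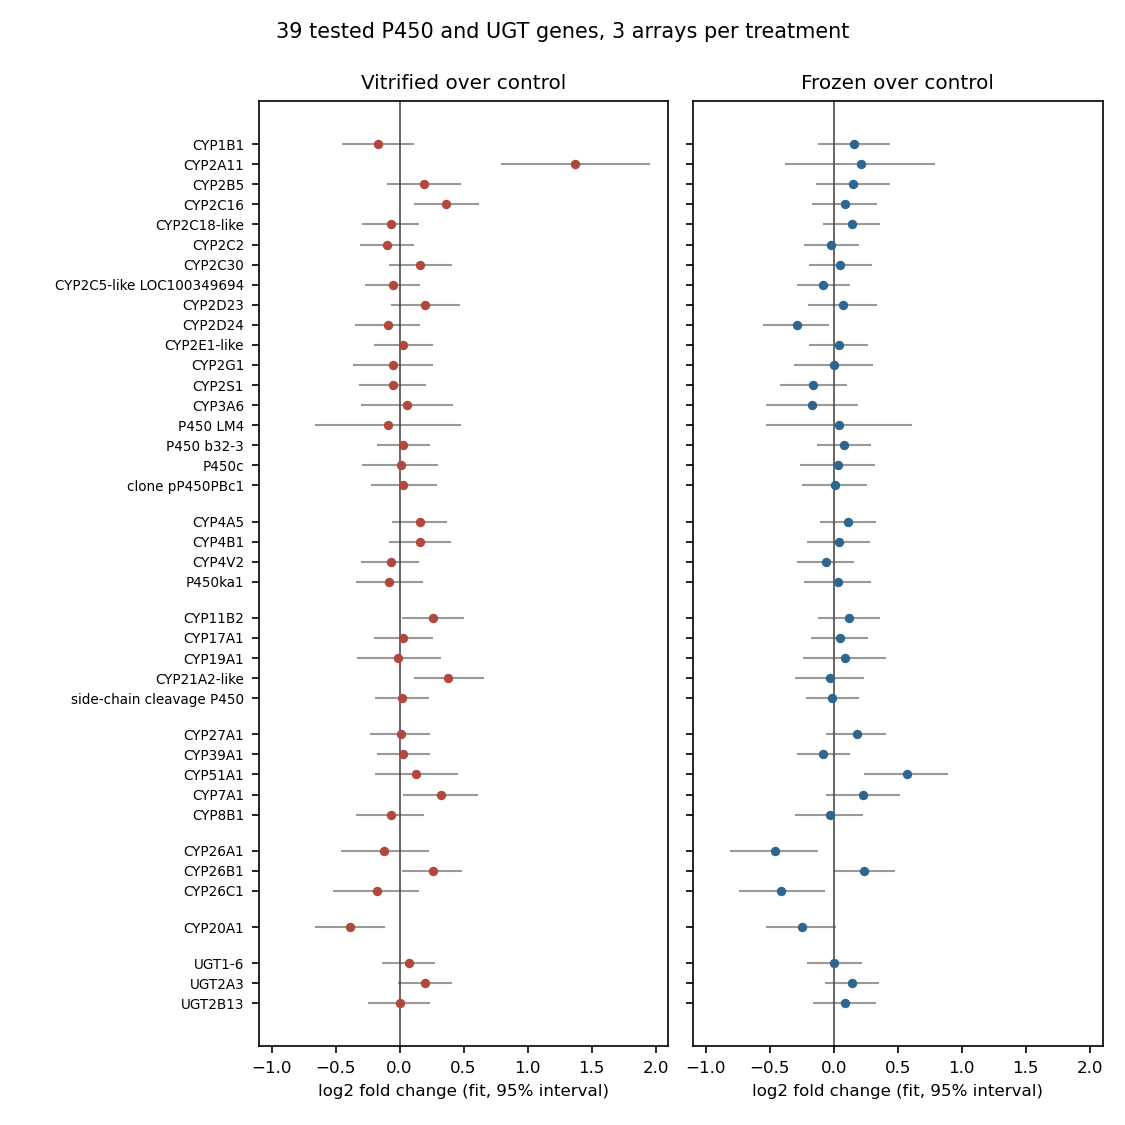
Points are the fitted log2 fold changes of the 39 tested genes, with 95% intervals as bars, for vitrified over control (left) and frozen over control (right), 3 arrays each. Genes are grouped by role in the order of the text. CYP2A11 at 1.37 is the one interval of a member that reaches past a log2 value of 1.

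Among the P450 enzymes of families 1 to 3, which oxidise drugs and other foreign compounds, 18 of 25 genes were tested. Their median was 0.02 in vitrified and 0.04 in frozen embryos. The value that stood apart belonged to the probe named CYP2A11, a member of the CYP2A subfamily of foreign-compound oxidases. Its log2 ratios were 1.58, 1.99 and 0.22 on vitrified arrays 1, 2 and 3, and 0.07, 0.25 and -0.02 on the frozen arrays. The first and second vitrified arrays were high, and the third lay within the range of the frozen arrays, so the groups overlapped. The fit over all 6 arrays gave 1.37 ± 0.25 (SE) in vitrified embryos, with a 95% interval of 0.79 to 1.96 and an adjusted p of 0.145 in limma's moderated test. This SE draws on the spread in both treatments and over all tested probes. The 3 vitrified ratios alone had a mean of 1.26 and an SD of 0.93. In frozen embryos the fitted value was 0.21 ± 0.25 (adjusted p = 0.794), which turned to -0.07 with median centring. The difference between the treatments was 1.16 ± 0.34 (interval 0.36 to 1.97, adjusted p = 0.593). The probe was well above background in 3 of 3 vitrified measurements, in 1 of 3 of their controls, and in 1 of 3 frozen and 1 of 3 frozen-control measurements. Its controls thus lay mostly near background, where the size of a ratio depends on how background is handled, and no fold change is given for it. In bulk extracts, a change in the number of cells of a type and a change in RNA per cell cannot be told apart.

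The size of this value depended on the arrays and the signal used. Without vitrified array 3 it was 1.78 and passed, with an adjusted p of 0.0362, and without vitrified array 2 it was 1.01 with an adjusted p of 0.833. With the scanner software's own processed ratio it was 2.92, with an adjusted p of 0.297. In a fit of single channels it was 1.34 with an adjusted p of 0.0151.

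Whether this probe reads a P450 is uncertain from the annotation. In the files it lies at chr1:370654-370887 on the plus strand and starts at base 2143 of its transcript record. Its nearest probes on the chromosome belong to ZFP37, which starts at 343079 and 343199, and to SLC46A2, which starts at 459815. In the rabbit gene table of assembly mOryCun1.1, the gene CYP2A11, which also carries the older name lcn, has CYP2G1 as its neighbour. Between SLC46A2 and ZFP37 that table lists no P450 but the non-coding LOC127490345 and the protein-coding LOC138842959. In the mouse, the interval between the genes of these names holds the major urinary proteins, which are lipocalins. The CYP2A10 probe starts at base 1270, holds the haem-loop letters shown above and lists the CYP2A11 record among its accessions, and it was well above background in 0 of 12 measurements. Which transcript gave the CYP2A11 signal was not tested.

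Some uterine, trophectoderm and red cell markers also had high ratios on vitrified arrays. SCGB1A1, the uteroglobin that the rabbit uterus secretes, had ratios of 2.53, 2.52 and 0.55 on the vitrified and 1.25, 2.00 and 0.78 on the frozen arrays. Like the CYP2A11 probe, it was higher on vitrified arrays 1 and 2 than on array 3, but unlike it, it was also above 0 on every frozen array. Of the uterine list 4 of 7 genes were tested, with a median of 0.57 in vitrified and 0.17 in frozen embryos. WFDC2 gave -0.08, 1.80 and 0.91 on the vitrified arrays, while PGR and OVGP1 had fitted values of 0.06 and 0.05. The summed channel signal of the uterine list ran from 12.02 to 12.81 in log2 in vitrified extracts, against 11.05 to 11.83 in their controls. It ran from 10.66 to 12.07 in frozen extracts, against 10.61 to 11.67 in theirs.

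The 5 tested trophectoderm genes did not share an order of arrays. The regulators GATA2, GATA3 and TFAP2A were lowest on vitrified array 3, with ratios of 0.74, 1.05 and 0.07, of 0.25, 0.12 and 0.03 and of 0.87, 0.83 and 0.10. TFAP2C was highest there, at -0.01, -0.11 and 0.13, and the keratin gene KRT8 was lowest on array 1, at -0.14, 1.00 and -0.02. On the frozen arrays the ratios of the 5 genes lay between 0.03 and 0.79. The trophectoderm list had 5 of 10 genes tested, with medians of 0.36 in vitrified and 0.34 in frozen embryos and a summed signal of 14.62 to 14.91 in vitrified extracts against 14.04 to 14.76 in their controls. Of the red cell genes HBB2 gave 1.78, 4.61 and 4.29 and HBA 2.27, 2.43 and 2.52 on the vitrified arrays, lowest on array 1. The red cell list had 3 of 6 genes tested, with medians of 2.33 and 1.03, and its summed signal ran from 13.87 to 17.31 in vitrified extracts against 11.95 to 13.49 in their controls. None of these marker genes passed the test in either treatment, as 0 of 5, 0 of 4 and 0 of 3 were called. The part of these tissues in the CYP2A11 value was not tested.

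**Figure D3:**
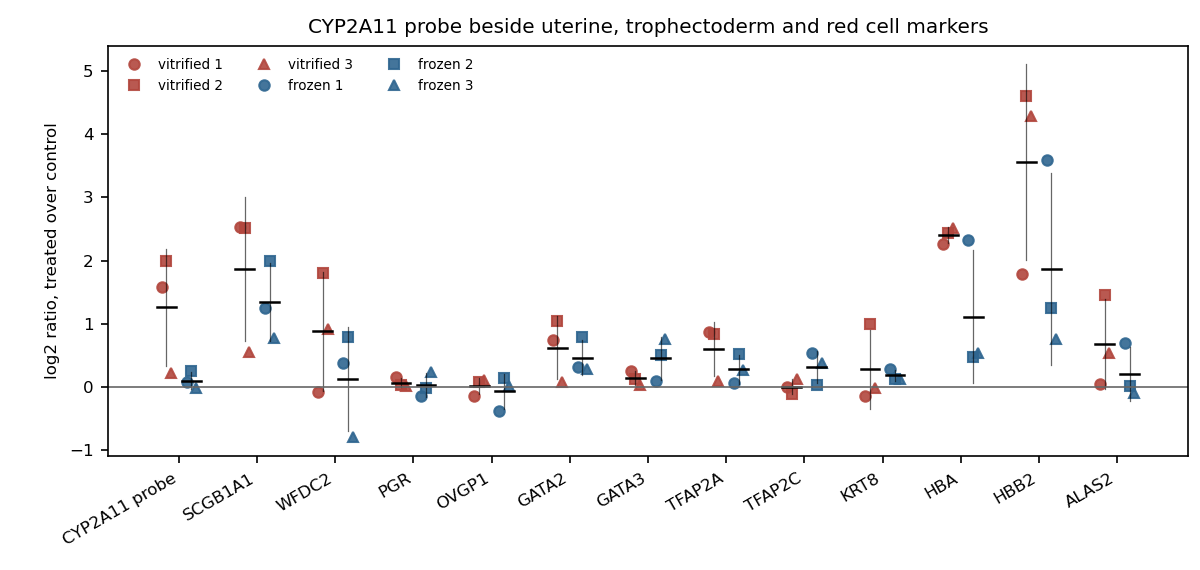
Log2 ratios of cryopreserved over control on each of the 6 arrays for the CYP2A11 probe and for markers of the uterus (SCGB1A1, WFDC2, PGR, OVGP1), the trophectoderm (GATA2, GATA3, TFAP2A, TFAP2C, KRT8) and red cells (HBA, HBB2, ALAS2). Black bars are the mean and thin lines the SD of 3 arrays. CYP2A11 and SCGB1A1 share 2 high vitrified arrays, at 1.58 and 1.99 and at 2.53 and 2.52, while KRT8 and HBB2 are lowest on vitrified array 1.

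CYP2C16, of a subfamily that hydroxylates drugs and steroids, had ratios of 0.54, 0.38 and 0.13 on the vitrified and 0.00, 0.16 and 0.06 on the frozen arrays. The groups overlapped by the value 0.13 of vitrified array 3. The fit gave 0.36 ± 0.11 in vitrified embryos (adjusted p = 0.2) and 0.09 ± 0.11 in frozen embryos (adjusted p = 0.803). Its other probe in 12 of 12 measurements gave 1.31, 0.42 and 0.37 on the vitrified and 1.16, -0.07 and 0.32 on the frozen arrays. The size thus differed between probes while the sign in vitrified embryos did not. These probes overlap in position, so their values are not independent.

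P450 LM4, which the files describe as a rabbit liver P450 and which has 5 probes, had 1 array that differed from the others of its treatment. Its brightest probe gave -0.82, 0.37 and 0.51 on the frozen arrays and 0.01, -0.30 and -0.05 on the vitrified arrays. All 5 probes put frozen array 1 lowest, between -0.82 and -0.54, and frozen arrays 2 and 3 above 0. The mean was therefore near 0, with 0.04 ± 0.25 in frozen embryos (adjusted p = 0.968) and -0.09 ± 0.25 in vitrified embryos (adjusted p = 0.878). The 5 probes read 1 gene on the same arrays, so their values are not independent. What set frozen array 1 apart was not tested.

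CYP2D24 lay below 0 on the frozen arrays, at -0.09, -0.46 and -0.21, and at -0.20, -0.15 and 0.19 on the vitrified arrays. The fit in frozen embryos was -0.29 ± 0.11 (adjusted p = 0.318). P450c and CYP1B1 are among the genes known for their induction by dioxin-like compounds. P450c, the rabbit enzyme induced by polycyclic hydrocarbons, was 0.01 ± 0.12 in vitrified and 0.03 ± 0.12 in frozen embryos (adjusted p = 0.987 and 0.947), and its sign turned under several alternatives. CYP1B1 gave -0.43, -0.11 and 0.05 on the vitrified and 0.11, 0.09 and 0.30 on the frozen arrays. It was well above background in 3 of 12 measurements and in 0 of 3 of the vitrified ones, so its ratios set signals near background against each other. The fitted value in vitrified embryos was -0.17 ± 0.12 (interval -0.45 to 0.11, adjusted p = 0.504). In frozen embryos it was 0.16 ± 0.12 (adjusted p = 0.636).

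Of the fatty acid hydroxylases of family 4, 4 of 7 genes were tested. Their fitted values lay between -0.08 and 0.16 in vitrified and between -0.06 and 0.11 in frozen embryos. CYP4A5, which hydroxylates the ends of fatty acids, was the one with ratios above 0 on all vitrified arrays, at 0.16, 0.13 and 0.13 (0.16 ± 0.09, adjusted p = 0.419). CYP4V2 gave -0.04, -0.14 and -0.02 on the frozen arrays (-0.06 ± 0.10, adjusted p = 0.848).

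Steroid hormone enzymes were read by 5 tested genes, with medians of 0.03 in vitrified and 0.05 in frozen embryos. The side-chain cleavage P450, which starts steroid synthesis from cholesterol, was 0.02 ± 0.09 in vitrified and -0.01 ± 0.09 in frozen embryos (adjusted p = 0.928 and 0.973). CYP17A1, which makes androgen precursors, was 0.03 ± 0.10 and 0.05 ± 0.10 (adjusted p = 0.894 and 0.898). The aromatase CYP19A1 gave -0.30, 0.21 and 0.05 on the vitrified and -0.01, -0.10 and 0.35 on the frozen arrays, with fitted values of -0.01 ± 0.14 and 0.09 ± 0.14 (adjusted p = 0.983 and 0.852). The arrays of either treatment lay on both sides of 0 for all 3 genes, and their signs turned under some alternatives.

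The CYP21A2-like gene, named after the adrenal enzyme that makes corticoid precursors, differed more. It gave -0.11, 0.78 and 0.21 on the vitrified and -0.37, 0.12 and -0.11 on the frozen arrays. Each vitrified array lay above the frozen array of the same number, although the groups overlapped. The difference between the treatments was 0.41 ± 0.16 (interval 0.04 to 0.79, adjusted p = 0.647). In vitrified embryos the value was 0.38 ± 0.12 (adjusted p = 0.202) and in frozen embryos -0.03 ± 0.12 (adjusted p = 0.949). The brightest probe of CYP11B2, which makes aldosterone in the adrenal gland, was above 0 on all 6 arrays. It gave 0.48, 0.16 and 0.18 on the vitrified and 0.15, 0.16 and 0.08 on the frozen arrays. Its fitted values were 0.26 ± 0.10 in vitrified embryos (adjusted p = 0.258) and 0.12 ± 0.10 in frozen embryos (adjusted p = 0.684). The other probe of the gene was well above background in 1 of 12 measurements and was not tested.

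In the sterol and bile acid enzymes the largest value was that of CYP51A1, which removes a methyl group from lanosterol on the way to cholesterol. Its ratios were 0.62, 0.24 and 1.15 on the frozen and 0.67, -0.15 and 0.19 on the vitrified arrays. All frozen arrays lay above 0, array 3 highest, and 1 vitrified array fell inside their range. The fit gave 0.57 ± 0.14 in frozen embryos (1.48-fold, interval 0.24 to 0.89, adjusted p = 0.169) and 0.13 ± 0.14 in vitrified embryos (interval -0.19 to 0.46, adjusted p = 0.66). The overlapping second probe gave 0.44, 0.42 and 0.90 on the frozen arrays and 0.50, 0.13 and 0.08 on the vitrified arrays. The difference, vitrified minus frozen, was -0.43 ± 0.19 (interval -0.88 to 0.01, adjusted p = 0.669).

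CYP7A1 gave 0.75, 0.04 and 0.43 on the vitrified and 0.23, 0.00 and 0.72 on the frozen arrays, from the bright probe that shares bases with other genes. The fitted value in vitrified embryos was 0.32 ± 0.13 (adjusted p = 0.257), and the next of its probes gave 0.02. CYP27A1, a mitochondrial sterol hydroxylase, was 0.01 ± 0.10 in vitrified and 0.18 ± 0.10 in frozen embryos (adjusted p = 0.982 and 0.511). CYP39A1 and CYP8B1, which act on oxysterols and bile acids, were 0.03 and -0.07 in vitrified and -0.08 and -0.03 in frozen embryos.

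The enzymes that clear retinoic acid were all detected and did not share a direction. CYP26A1 gave -0.13, -0.56 and -0.71 on the frozen and -0.41, -0.01 and 0.07 on the vitrified arrays. CYP26C1 gave -0.20, -0.53 and -0.45 on the frozen and -0.52, -0.15 and 0.16 on the vitrified arrays. Every frozen array lay below 0 for both, and for both the lowest vitrified array, array 1, fell among the frozen ones. In frozen embryos the fit gave -0.46 ± 0.15 for CYP26A1 (interval -0.81 to -0.12, adjusted p = 0.246) and -0.41 ± 0.14 for CYP26C1 (interval -0.74 to -0.07, adjusted p = 0.294). In vitrified embryos the values were -0.12 ± 0.15 (adjusted p = 0.724) and -0.18 ± 0.14 (adjusted p = 0.545). CYP26B1 lay above 0 on all 6 arrays, at 0.25, 0.34 and 0.09 for vitrified and 0.31, 0.32 and 0.01 for frozen embryos. Its fitted values were 0.26 ± 0.10 and 0.24 ± 0.10 (adjusted p = 0.264 and 0.375). Below 0 for CYP26A1 and CYP26C1 and above 0 for CYP26B1 in frozen embryos held under each of the 18 alternatives run.

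Some markers of the epiblast and the endoderm also lay below 0 on the frozen arrays, and others did not. POU5F1 gave -0.94, -0.88 and -0.56 on the frozen and -0.65, -0.17 and 0.63 on the vitrified arrays, and OTX2 gave -0.68, -0.51 and -0.21 on the frozen arrays. DPPA5, of the same list, gave -0.07, 0.12 and 0.02 there. The list of the inner cell mass and epiblast had 3 of 7 genes tested, with medians of -0.51 in frozen and -0.09 in vitrified embryos. Its summed signal was 12.91 to 13.25 in frozen extracts against 13.24 to 13.97 in their controls. The endoderm and yolk sac list had 7 of 14 genes tested, with medians of -1.0 in frozen and -0.05 in vitrified embryos, a summed signal of 12.35 to 12.86 in frozen extracts against 13.13 to 13.79 in their controls, and TTR and ALB never well above background. In that list APOA2 was called, having dropped by 1.00 on the log2 scale in frozen embryos (-1.28, -0.83 and -1.15, SE 0.12, adjusted p = 0.0427). GATA4, APOA1, RBP4 and TF had fitted values of -0.23, -1.13, -1.25 and -1.20 in frozen embryos, and every frozen ratio of theirs was below 0. DAB2 gave 1.12, 0.55 and 0.21 on the frozen arrays (0.66 ± 0.18, adjusted p = 0.197), all above 0, and AFP 0.74, -0.38 and 0.48 (0.14 ± 0.10, adjusted p = 0.625). The part of these cell types in the CYP26 values was not tested.

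**Figure D4:**
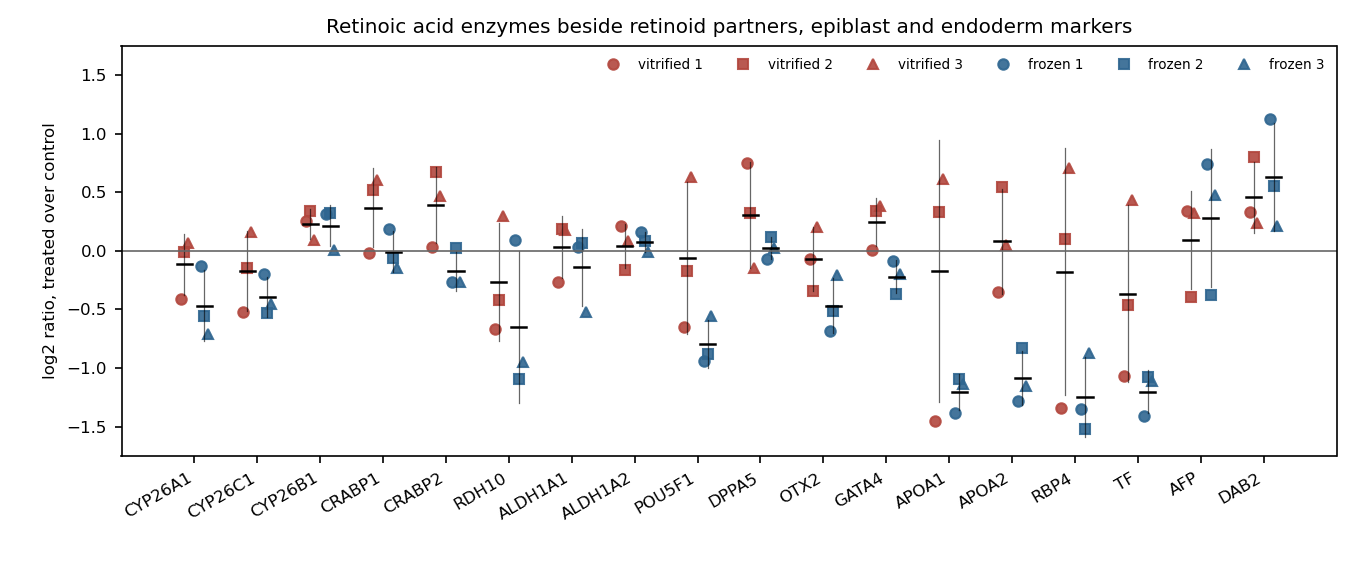
Log2 ratios on each of the 6 arrays for CYP26A1, CYP26C1 and CYP26B1, for retinoid carriers and enzymes (CRABP1, CRABP2, RDH10, ALDH1A1, ALDH1A2) and for all tested markers of the epiblast (POU5F1, DPPA5, OTX2) and endoderm (GATA4, APOA1, APOA2, RBP4, TF, AFP, DAB2). Black bars are the mean and thin lines the SD of 3 arrays. All frozen points of CYP26A1 and CYP26C1 lie below 0, down to -0.71 and -0.53, those of APOA2 lie between -1.28 and -0.83, and those of DAB2 between 0.21 and 1.12.

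CYP20A1, a P450 with no assigned substrate, was the tested member with the lowest value in vitrified embryos. Its brightest probe gave -0.32, -0.57 and -0.28 on the vitrified and -0.43, -0.03 and -0.31 on the frozen arrays. All 6 ratios were below 0 and the groups overlapped. The fit gave -0.39 ± 0.12 in vitrified (interval -0.66 to -0.11, adjusted p = 0.202) and -0.25 ± 0.12 in frozen embryos (adjusted p = 0.42). The other probe of the gene, also in 12 of 12 measurements, gave 0.06, -0.50 and -0.04 on the vitrified and 0.03, -0.33 and -0.11 on the frozen arrays. It agreed in sign on arrays 2 and 3 but not on array 1 of either treatment. Without vitrified array 2 the fitted value of the brightest probe was -0.13, with an adjusted p of 0.909.

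The 3 tested glucuronosyltransferases had fitted values of 0.00 to 0.20. UGT1-6 gave 0.16, 0.04 and 0.01 on the vitrified and -0.01, 0.04 and -0.04 on the frozen arrays. The fit gave 0.07 ± 0.09 (interval -0.14 to 0.28, adjusted p = 0.73) and 0.00 ± 0.09 (interval -0.21 to 0.22, adjusted p = 0.994). The brightest probe of UGT2A3 lay above 0 on all 6 arrays, at 0.17, 0.22 and 0.23 and at 0.23, 0.09 and 0.13. Its fitted values were 0.20 ± 0.09 and 0.14 ± 0.09 (adjusted p = 0.306 and 0.566). The other probe of that gene was in 0 of 12 measurements and was not tested. UGT2B13, in 4 of 12 measurements, gave 0.03, 0.01 and 0.36 on the frozen arrays (0.09 ± 0.10, adjusted p = 0.795).

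**Figure D5:**
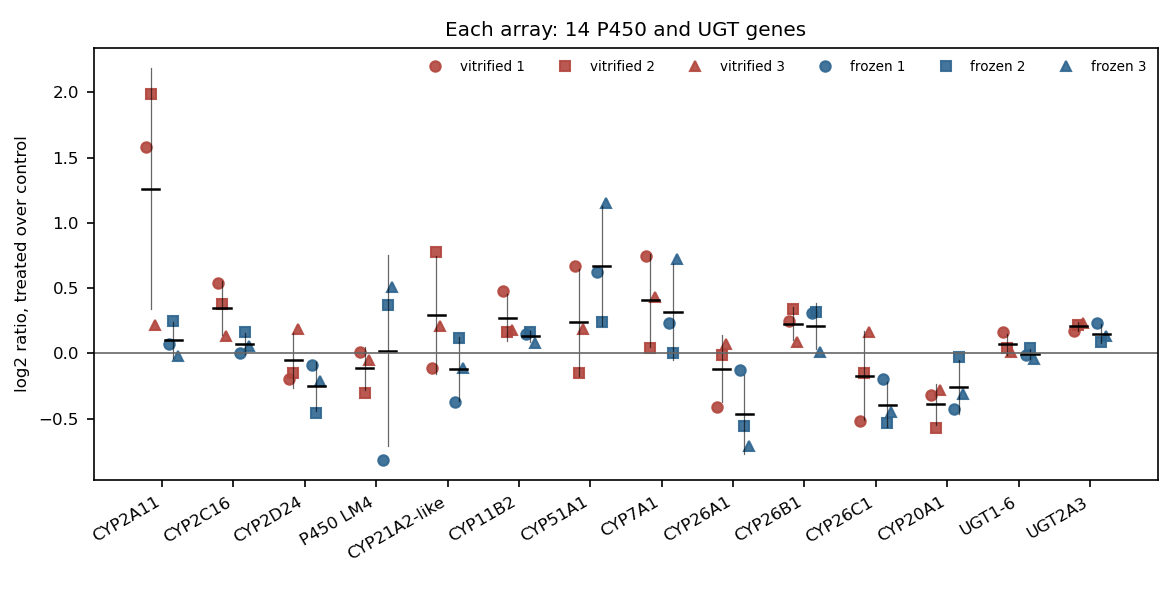
Log2 ratios of cryopreserved over control on each of the 6 arrays for 14 genes named in the text, red for vitrified and blue for frozen embryos, with a marker shape for each replicate number. Black bars are the mean and thin lines the SD of 3 arrays. CYP2A11 is at 1.58 and 1.99 on 2 vitrified arrays and at 0.22 on the other, CYP51A1 reaches 1.15 on frozen array 3, and UGT1-6 stays between -0.04 and 0.16.

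The difference between vitrification and freezing was near 0 for most members. The median over the 39 genes was 0.03, against 0.02 over all tested probes. The genes with the same sign in all 3 same-numbered differences and the largest values were CYP2A11 and the CYP21A2-like gene, given above, followed by CYP2C16 at 0.27 ± 0.15, CYP3A6 at 0.23 ± 0.21 and CYP39A1 at 0.11 ± 0.12. CYP3A6 belongs to the subfamily that oxidises most drugs in the liver, and it was well above background in 6 of 12 measurements. On the other side CYP1B1 was at -0.33 ± 0.17, the CYP2C18-like gene at -0.20 ± 0.13 and CYP27A1 at -0.17 ± 0.14. The CYP2C18-like probe was well above background in 4 of 12 measurements, with 0 of 3 vitrified ones and 0 of 3 of their controls. It was thus tested only through the frozen arrays, and its vitrified ratios set signals near background against each other. CYP2C2, in 5 of 12 measurements, and CYP8B1 followed at -0.08 ± 0.12 and -0.04 ± 0.16. Adjusted p-values of these 8 genes ran from 0.694 to 0.965.

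The proteins that work with these enzymes were followed on a list of 52 genes, of which 33 had a probe and 28 were tested. None passed in vitrified embryos, frozen embryos or the difference, against 0.0195%, 0.185% and 0% of all tested probes. At an unadjusted p under 0.05 there were 10, 9 and 5 of the 28 (35.7%, 32.1% and 17.9%), where 17.4%, 13.2% and 7.54% of all tested probes stood. Their medians were 0.01, 0.02 and 0.11. The electron donor POR lay below 0 on all frozen arrays, at -0.42, -0.28 and -0.11 (-0.26 ± 0.11, adjusted p = 0.349). In vitrified embryos the smallest p-values of the list were those of CRABP2, a carrier of retinoic acid, UGDH, which makes the sugar that UGT enzymes attach, and ABCB1, a drug exporter. They stood at 0.45 ± 0.11, 0.38 ± 0.10 and -0.54 ± 0.15 (adjusted p = 0.175, 0.186 and 0.186). The sign was the same on all 3 arrays for each.

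In frozen embryos FMO1, a flavin-containing enzyme that oxidises drugs without P450, gave -1.04, -0.60 and -0.62, against -0.56, -0.37 and -0.24 on the vitrified arrays. Every frozen ratio lay below every vitrified one, but the difference between the treatments, 0.36 ± 0.17, did not pass (adjusted p = 0.676). FMO1 was named for its small p-value, and the share of all probes with such a separation was not computed. The fit gave -0.73 ± 0.12 in frozen embryos (adjusted p = 0.0849) and -0.37 ± 0.12 in vitrified embryos (adjusted p = 0.218). CYB5B, a cytochrome that can pass electrons to P450 enzymes, and EPHX2, which opens the epoxides that some of them make, were at 0.41 ± 0.11 and -0.48 ± 0.15 (adjusted p = 0.192 and 0.234). Between the treatments the smallest p-values belonged to ABCB1, HSD17B4, which oxidises oestradiol and fatty acids in peroxisomes, and CRABP2. The differences were -0.91 ± 0.21, -0.62 ± 0.15 and 0.56 ± 0.15 (adjusted p = 0.54, 0.564 and 0.593). The sign was the same in all 3 same-numbered pairs for each.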

How the data were processed

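RNA of 6-day rabbit blastocysts was labelled from 100 ng in 2 dyes and read on 6 arrays, with the cryopreserved extract in Cy5 on replicates 1 and 3 and in Cy3 on replicate 2. Per the file headers and the submitters' processing notes, the deposited intensity values are mean spot signals and median local backgrounds from Agilent Feature Extraction 10.10.1.1, not normalised. The deposited log10 ratio, background-subtracted and dye-normalised by that software, was used in 1 alternative. Deposited flags also mark which signals rise clearly over background.

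From the deposited intensities, background was corrected by normexp (offset 50) and arrays were normalised by loess in limma 3.58.1 under R 4.3.3, control spots having weight 0, and replicate spots were averaged by probe. Probes with this flag in at least 3 of 12 channel measurements were fitted with a coefficient per treatment and a dye term over the 6 arrays, which leaves 3 residual degrees of freedom. Adjusted p means Benjamini-Hochberg over 30761 probes in limma's moderated test. Gene names came from the files and a rabbit gene table (mOryCun1.1), and 40 of the 59 genes received a symbol. An exact permutation test of 3 against 3 cannot go below 0.1, so none was run.

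Named genes were those called, the 6 with the largest values per comparison and direction whose sign held on all 3 arrays, CYP2A11 and a fixed set of well-known members, and partner genes with the 3 smallest p-values. P450 LM4, CYP4A5, POR and the single marker genes were named after their values were seen. The members and lists were chosen with earlier results of these data known. The fit was also run on simulated arrays with independent errors, which do not reproduce control extracts shared between arrays. Per the labels, arrays of the same number share the control extract, and the correlations of their deviations were 0.020, 0.598 and 0.169. Slide 1 held vitrified 1 and frozen 1 and 2, and slide 2 the others. Alternatives were other background, normalisation, filter, dye, block, slide, spread, flag, probe, member and threshold choices and each array left out.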

Additional observations from a re-analysis of the deposited data

How the results depend on the processing

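Under 20 alternatives the count of members past the threshold stayed at 0 in frozen embryos and in the difference. In vitrified embryos it was 4 with single channels (CYP2A11 1.34, CYP20A1 -0.44, CYP2C16 0.37 and the CYP21A2-like gene), where 2358 probes passed in all, and between 0 and 1 when arrays were left out in turn. The members' median in vitrified embryos was 0.05 with the scanner software's ratio and from 0.02 to 0.06 with arrays left out. In frozen embryos it was 0.11 with the scanner software's ratio and 0.01 with no filter on dim probes, and 0.02 to 0.05 with arrays left out. In the difference the range with arrays left out was -0.01 to 0.07. Over all probes, 6 and 57 calls became 0 and 0 with the slide as a covariate or with an intensity trend and robust spread, while the 57 frozen calls became 860 and the 0 calls of the difference 81 with single channels. The frozen calls were 33 with median centring, 8 with no dye term, 1 with the scanner software's ratio (0 in vitrified embryos) and 187 at a threshold of 0.1. They were 502 without vitrified array 1, 4 and 3 without vitrified array 2 or 3, 1 without frozen array 1 and 0 without frozen array 2 or 3. The vitrified calls were 16 without vitrified array 3 and 0 without vitrified array 2 or frozen array 2 or 3. With the replicate number as a block, whose estimated correlation was -0.103, 8, 61 and 0 probes passed, the members' medians were 0.03, 0.04 and 0.03, and no call of a member changed.

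Of 820 values of named genes under alternatives, 777 kept their sign, and the 43 that turned were at most 0.24 in size. With no dye term CYP17A1 was -0.02 in frozen and -0.03 in vitrified embryos, CYP27A1 -0.02 and the side-chain cleavage P450 -0.01 in vitrified embryos. With median centring CYP27A1 was -0.05 (vitrified), CYP2A11 -0.07 and UGT1-6 0.00 (frozen). With single channels UGT1-6 was -0.04 (frozen) and the side-chain cleavage P450 0.07 (frozen) and -0.07 (vitrified). With no background correction P450c was -0.01 (frozen) and -0.02 (vitrified), the side-chain cleavage P450 -0.01 and the CYP2C18-like gene 0.01 (vitrified). With the scanner software's ratio these were -0.24, -0.18, -0.16 and 0.11. With the slide as a covariate P450c was -0.05 (vitrified) and UGT1-6 -0.01 (frozen). With the mean of a gene's probes CYP19A1 was 0.06 (vitrified) and CYP8B1 0.00 (difference). With arrays left out, the ranges that crossed 0 in vitrified embryos were -0.26 to 0.13 for CYP19A1, -0.24 to 0.03 for CYP26A1, -0.01 to 0.03 for CYP27A1, -0.11 to 0.03 for the CYP2C18-like gene, -0.19 to 0.14 for P450c and 0.00 to 0.08 for the side-chain cleavage P450. In frozen embryos they were -0.02 to 0.11 for CYP17A1, -0.05 to 0.34 for CYP19A1, -0.09 to 0.05 for CYP4V2, -0.06 to 0.23 for P450c, -0.04 to 0.02 for UGT1-6 and -0.07 to 0.00 for the side-chain cleavage P450. CYP8B1 ran from -0.15 to 0.06 in the difference. Causes of these shifts were not tested. For 20 of 59 genes the signal over background was too low for a test.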
